A study of Mus musculus with 15 samples.

Results

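Mouse liver transcribes a dense family of clade A serpin genes, and 10 of them are described here across 3 groups of animals: *Serpina1a*, *Serpina1b*, *Serpina1c*, *Serpina1d*, *Serpina1e*, *Serpina3k*, *Serpina3m*, *Serpina3n*, *Serpina6* and the pseudogene *Serpina4-ps1*. They are 10 of the 37991 identifiers in the count table and were chosen by name, with earlier results of these counts already known. Which values were used to draw up the list was not recorded, so every fold change and adjusted p of the 10 genes is a description, and nothing rests on the number that changed.

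RNA was sequenced from whole livers of female C57BL/6 mice, 5 per group and 1 library per animal. The young WT and old WT groups had intact *S6K1* and were aged 90 and 600 days, respectively. The old KO group, also aged 600 days, carried a germline deletion of *S6K1*, so every cell type was affected. *S6K1*, listed as *Rps6kb1*, encodes ribosomal protein S6 kinase 1, a kinase downstream of mTORC1. No young KO group was analysed here, so an effect of genotype in young animals could not be separated from one in old animals.

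Serpins are secreted or intracellular proteins that trap a protease when it cuts an exposed stretch called the reactive centre loop, and the bases that encode this loop differ most between closely related members. Hepatocytes are the main source of the clade A serpins in plasma. *Serpina1a* to *Serpina1e* are the mouse counterparts of the single human gene for alpha-1-antitrypsin, the plasma inhibitor of neutrophil elastase. Which protease each mouse paralog inhibits was not tested. *Serpina3k*, *Serpina3m* and *Serpina3n* belong to an expanded mouse family related to human alpha-1-antichymotrypsin. *Serpina6* encodes corticosteroid-binding globulin, which carries glucocorticoids in plasma and has no protease-inhibiting role.

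All 10 genes lie on chromosome 12 of the mm9 assembly, which is NCBIM37. The GENCODE M1 annotation places *Serpina6* first, at chr12:104884840-104895422 on the minus strand. The *Serpina1* genes follow in the order *Serpina1b*, *Serpina1d*, *Serpina1a*, *Serpina1c* and *Serpina1e*, from chr12:104966366 to chr12:105197185, all on the minus strand. *Serpina4-ps1* is at chr12:105318859-105324934 on the plus strand, and *Serpina3k*, *Serpina3m* and *Serpina3n* end the row between chr12:105576696 and chr12:105652539, also on the plus strand. *Serpina1c* overlaps B430119L08Rik, a processed transcript on the opposite strand, and the strand setting of the counting was not given in the sources used here, so reads of these overlapping stretches cannot be assigned with certainty.

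The 5 *Serpina1* loops are shown because they mark where these genes differ. Each stretch of 81 bases lies in 1 exon and runs from the conserved hinge to the conserved segment beyond the reactive centre, read 5′ to 3′ on the coding strand from NCBIM37. The positions are chr12:105091960-105092040 for *Serpina1a*, chr12:104966527-104966607 for *Serpina1b*, chr12:105133297-105133377 for *Serpina1c*, chr12:105001965-105002045 for *Serpina1d* and chr12:105185303-105185383 for *Serpina1e*, all on the minus strand. Capitals mark the 18 positions at which the 5 sequences are not all alike.
Serpina1a: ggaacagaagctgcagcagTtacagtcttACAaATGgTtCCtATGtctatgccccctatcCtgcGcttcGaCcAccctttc
Serpina1b: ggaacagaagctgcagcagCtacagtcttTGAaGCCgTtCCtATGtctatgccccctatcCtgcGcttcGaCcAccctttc
Serpina1c: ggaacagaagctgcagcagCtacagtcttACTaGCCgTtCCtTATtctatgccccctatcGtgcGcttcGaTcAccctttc
Serpina1d: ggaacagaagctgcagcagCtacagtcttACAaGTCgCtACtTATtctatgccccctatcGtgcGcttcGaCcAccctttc
Serpina1e: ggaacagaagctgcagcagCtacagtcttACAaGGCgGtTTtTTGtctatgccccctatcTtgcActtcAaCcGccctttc

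Over the whole coding sequence of 1242 bases, pairs of *Serpina1* genes differed at 19 to 46 positions, which is an identity of 96.30% to 98.47%. *Serpina1e* differed from the other 4 genes at 10 to 12 of the 81 loop bases, and *Serpina1c* and *Serpina1d* differed at 5. The corresponding stretches of the *Serpina3* genes are shown for comparison, as this family has diverged further. They lie on the plus strand, at chr12:105583479-105583562 for *Serpina3k*, chr12:105631979-105632068 for *Serpina3m* and chr12:105651658-105651747 for *Serpina3n*.
Serpina3k: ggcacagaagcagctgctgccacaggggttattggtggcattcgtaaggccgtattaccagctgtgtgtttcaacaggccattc
Serpina3m: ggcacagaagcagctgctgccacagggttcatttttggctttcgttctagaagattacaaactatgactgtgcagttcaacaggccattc
Serpina3n: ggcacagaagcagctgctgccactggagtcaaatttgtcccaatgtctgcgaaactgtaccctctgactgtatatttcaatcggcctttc

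These near-identical stretches limit what reads of 50 bases can show. Of all 50-base windows in the spliced transcript, the share found at no second place in the genome or in another gene's protein-coding transcript was 22.65% for *Serpina1a*, 26.3% for *Serpina1c*, 49.07% for *Serpina1d*, 51.9% for *Serpina1b* and 64.29% for *Serpina1e*. It was 80.93% for *Serpina3m*, 82.43% for *Serpina3k* and 93.1% for *Serpina3n*. For *Serpina6* and *Serpina4-ps1* it was 100%. *Serpina1a* and *Serpina1c* had 881 windows in common. How reads with several matches were treated was not given in the sources used here, so the level of a single *Serpina1* gene is uncertain, and the sum over the 5 genes is given beside it.

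**Figure D1:**
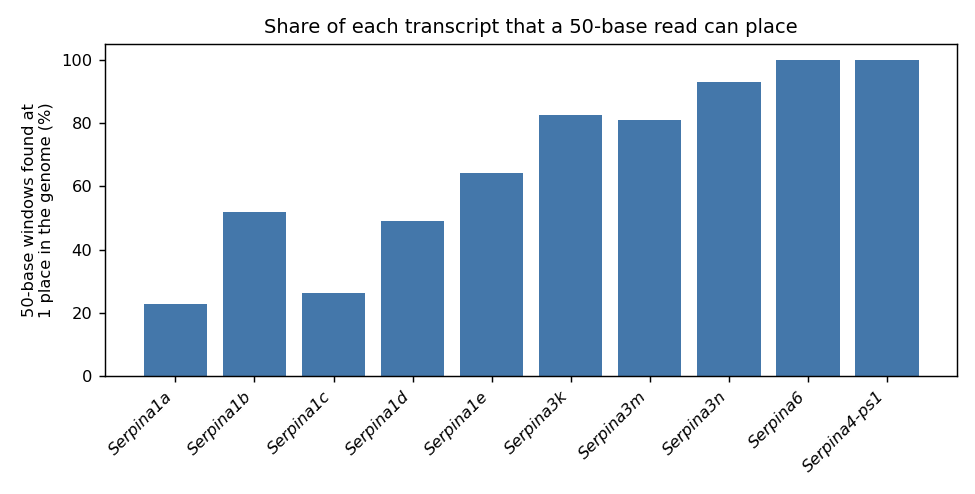
Share of 50-base windows of each transcript that occur at no second place, in percent on a linear axis from 0, as 1 bar per gene. *Serpina1a* (22.65%) and *Serpina1c* (26.3%) have the lowest bars, and *Serpina6* and *Serpina4-ps1* are at 100%.

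The RefSeq promoter table (GRCm38.p6), with 250 bases before and 50 after each start, held 6 of the 10 genes: the 5 *Serpina1* genes and *Serpina3n*. The promoters of *Serpina1b* and *Serpina1e* are shown because these 2 genes had the highest and the lowest mean level of the 5 paralogs in every group. They are the 250 bases before the start, at chr12:103738190-103738439 and chr12:103956898-103957147 on the minus strand of GRCm38.p6, with motif matches in capitals.
Serpina1b: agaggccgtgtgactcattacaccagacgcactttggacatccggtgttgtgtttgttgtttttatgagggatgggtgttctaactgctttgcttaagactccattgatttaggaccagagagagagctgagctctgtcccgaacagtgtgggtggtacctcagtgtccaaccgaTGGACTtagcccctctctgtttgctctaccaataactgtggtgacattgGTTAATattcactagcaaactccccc
Serpina1e: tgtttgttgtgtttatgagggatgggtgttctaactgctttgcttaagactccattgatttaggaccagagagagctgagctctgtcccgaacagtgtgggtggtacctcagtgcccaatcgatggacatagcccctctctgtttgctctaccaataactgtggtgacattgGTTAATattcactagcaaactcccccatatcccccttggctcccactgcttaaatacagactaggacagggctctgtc

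Over the 250 bases that could be aligned, the promoters of *Serpina1b* and *Serpina1e* were 97.6% identical, and all *Serpina1* pairs fell between 91.38% and 97.6%. Each of the 5 *Serpina1* promoters held 1 match to GTTAAT, part of the site of the hepatocyte factor HNF1, on either strand, as did 7.1% of all 32851 promoters. AGTCCA, an HNF4-like motif, was found in those of *Serpina1a*, *Serpina1b* and *Serpina1d* and in 14.15% of all promoters. ACANNNTGT, a loose glucocorticoid receptor motif, was found in *Serpina1a* and *Serpina3n* and in 6.85% of all. None of the 6 windows held TTGCNNCAA (C/EBP, 2.08% of all) or TTCNNNGAA (STAT, 8.3% of all). No match of 1 motif overlapped a match of another in the 6 windows, and a match of letters is a description only.

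The 15 libraries held 21801754 to 38065359 counted reads. *Rps6kb1* was at 33.3 to 45.4 CPM (counts scaled to an equal library size) in the WT libraries and at 15.2 to 20.8 CPM in the 5 old KO libraries, without overlap (log2 fold change −1.17, SE 0.10, edgeR adjusted p = 8.54e-06). All 15 libraries had *Xist* at 773 CPM or more and less than 1 CPM of 4 Y-linked genes, which matches female tissue. Hepatocyte genes summed to 86243 to 151140 CPM, against 111 to 487 CPM for 7 macrophage markers. Young WT 6 had the lowest depth and stood apart from its group. Its expression correlated with the other young WT libraries (median r = 0.978) about as well as with old WT (0.976), whereas the other 4 young WT libraries had medians of 0.984 to 0.985 with their own group and 0.966 to 0.973 with old WT. Old WT 7 was the library least like its group, with a median r of 0.975 against 0.985 to 0.987 for the other 4.

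The 10 genes together took 0.871% to 1.46% of all reads in the young group. In the old WT group they took 0.788% to 1.04%, and in the KO group 0.975% to 1.24%. Per kilobase of transcript, *Serpina3k* was the most abundant in young WT, with 3984 ± 855 CPM per kb (SD, n = 5). *Serpina1b* (1786 ± 297 CPM per kb) and *Serpina1d* (1016 ± 187 CPM per kb) followed, and the library ranges of these first 3 genes did not overlap. *Serpina1c*, *Serpina1a*, *Serpina3m*, *Serpina3n* and *Serpina1e* lay between 465 and 212 CPM per kb, with overlapping ranges from 1 gene to the next. *Serpina6* was at 62.5 ± 18.4 CPM per kb and *Serpina4-ps1* at 1.64 ± 0.73 CPM per kb. In old WT, *Serpina1b* came first with 1820 ± 109 CPM per kb and *Serpina3k* second with 1588 ± 720 CPM per kb, with overlapping ranges, and *Serpina6* had moved up to 260 ± 77.4 CPM per kb. Old KO livers again had *Serpina3k* first, at 2439 ± 917 CPM per kb, overlapping *Serpina1b* at 2151 ± 107 CPM per kb. Reads lost to shared sequence make the per-length levels of the *Serpina1* genes lower bounds if reads with several matches were left out. The order also depends on the length used. Per kilobase of windows found at no second place, *Serpina1b* (4295 CPM) was above *Serpina3k* (3049 CPM) in old KO. In old WT *Serpina3k* (1986 CPM) was then below *Serpina1d* (2074 CPM), and in young WT it stayed first (4981 CPM).

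**Figure D2:**
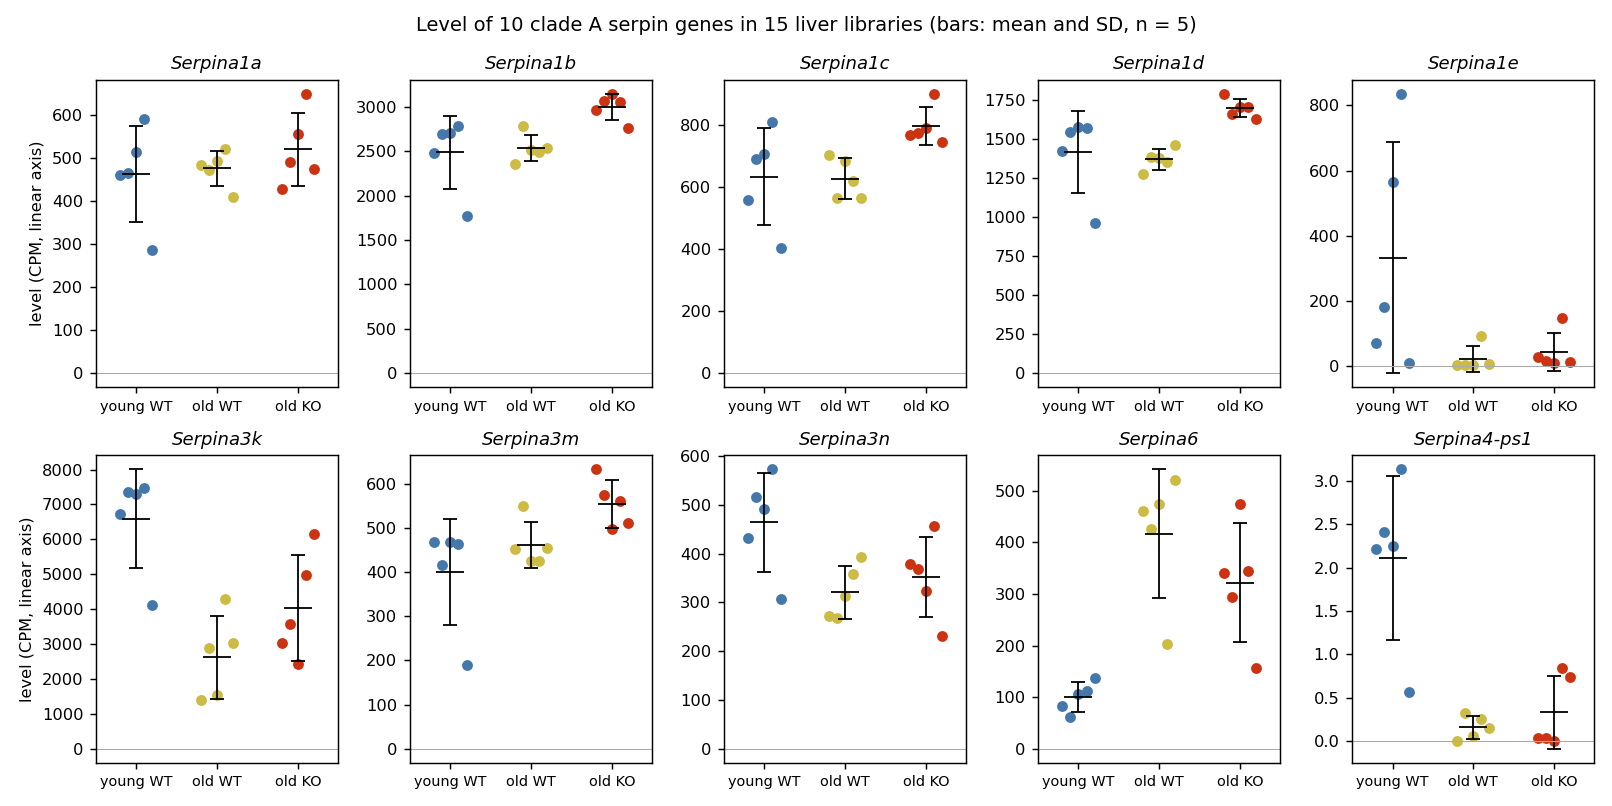
Level of each of the 10 genes in the 15 libraries, in CPM on linear axes that differ between genes. Each point is 1 library and the bars give the mean and SD of 5. *Serpina6* is higher and *Serpina4-ps1* lower in all old WT than in all young WT libraries, and young WT 6 is the lowest young library for 9 of the 10 genes.

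The first comparison asked how the genes differed between old and young WT liver. In the fit over all 14258 tested genes, 5 of the 10 passed an adjusted p of 0.05, against 18.8% of all tested genes. *Serpina6* rose, against 9.92% of tested genes that rose, and *Serpina1e*, *Serpina3k*, *Serpina3n* and *Serpina4-ps1* fell, against 8.91% that fell. Only *Serpina6* and *Serpina4-ps1* had groups without overlap, which held for 11.4% of tested genes. *Serpina4-ps1* passed the low-count filter only through the young libraries, where it was high. The median log2 fold change was −0.03 over the 10 genes and 0.01 over all tested genes. In whole tissue, fewer expressing cells and less RNA per cell cannot be told apart.

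*Serpina6*, the glucocorticoid carrier, was at 83.3, 60.8, 107, 112 and 138 CPM in young WT 1, 2, 3, 4 and 6. In old WT 1, 4, 5, 7 and 10 it was at 462, 426, 474, 204 and 522 CPM. Every old WT library was above every young one, with old WT 7 the lowest of its group and young WT 6 the highest of its own. The mean rose 4.16-fold, from 100.3 ± 29.5 to 417 ± 124 CPM (log2 fold change 2.06, SE 0.29, edgeR adjusted p = 0.000499). Without young WT 6 the log2 fold change was 2.21, and without old WT 7 it was 2.24.

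*Serpina3k*, a kallikrein-binding serpin and the most abundant of these transcripts in young liver, was at 6719, 7343, 7296, 7476 and 4115 CPM in the young WT libraries, in the same order. Its old WT levels were 1405, 2878, 1541, 4294 and 3018 CPM. The other 4 young libraries were tightly grouped at 6719 CPM or more, while young WT 6 fell just below old WT 7, the highest old library. The mean fell 2.51-fold, from 6590 ± 1413 to 2627 ± 1190 CPM (log2 fold change −1.33, SE 0.31, edgeR adjusted p = 0.00809). Leaving out young WT 6 gave −1.45 and leaving out old WT 7 gave −1.57.

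*Serpina1e*, the alpha-1-antitrypsin gene with the lowest mean in each group, was spread over a 71.0-fold range among the young animals alone. The young WT libraries held 71.7, 182, 566, 836 and 11.8 CPM. In young WT 3 and 4 the CPM of *Serpina1e* was above that of *Serpina1a* (515 and 591 CPM). A smaller share of *Serpina1a* windows occurs at no second place (22.65% against 64.29%), so this order of counts may not be the order of transcripts. Old WT held 5.09, 3.73, 3.07, 92.4 and 7.13 CPM. The other 4 old libraries were below every young library, and old WT 7 was above young WT 1 and young WT 6. The log2 fold change of −3.91 (SE 1.22) passed the threshold (edgeR adjusted p = 0.0350), with a 95% interval of −6.48 to −1.33. Leaving out any 1 of old WT 1, 4, 5 or 10 or young WT 3 or 4 took the adjusted p to 0.0622 to 0.0790, while the value without old WT 7 was −6.13.

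*Serpina4-ps1*, an untranslated relative between the *Serpina1* and *Serpina3* genes, was barely transcribed. It had 84, 79, 69, 104 and 13 reads in the young WT libraries and 0, 9, 2, 7 and 4 reads in the old WT libraries. All old libraries were below all young ones, although young WT 6 held far fewer reads than the other 4. In CPM the means were 2.11 ± 0.94 and 0.157 ± 0.133 (log2 fold change −3.78, SE 0.78, edgeR adjusted p = 0.00427). With 0 to 9 reads in an old library, the size of the fall is imprecise (95% interval −5.43 to −2.14). The gene passed the low-count filter only through the young libraries and failed it when only the old libraries were used. Its call is therefore a description.

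*Serpina3n*, an acute phase serpin that inhibits granzyme B and other serine proteases, was at 433, 515, 492, 573 and 307 CPM in young WT. Its old WT levels were 271, 268, 314, 359 and 393 CPM. The ranges overlapped through young WT 6, which lay below 3 old libraries. The fall of 0.53 on the log2 scale (−0.53, SE 0.18) was at the edge of the threshold (edgeR adjusted p = 0.0498) and was lost in 8 of the 10 fits that left out a library, with adjusted p up to 0.123. It also missed the threshold with limma voom (adjusted p = 0.0661), with no filter on low counts (0.0561) and with upper quartile scaling (0.0577).

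The 4 abundant *Serpina1* genes and *Serpina3m* did not pass the test with age. *Serpina1b* was at 2486, 2698, 2707, 2780 and 1776 CPM in young WT and at 2361, 2780, 2516, 2495 and 2535 CPM in old WT. The log2 fold change was 0.03, with a 95% interval of −0.21 to 0.27. *Serpina1a*, *Serpina1c* and *Serpina1d* had log2 fold changes of 0.04, −0.01 and −0.05, with 95% intervals that together spanned −0.32 to 0.37, and the signs of all 4 genes changed when single libraries were left out. *Serpina3m* gave 0.20 (95% interval −0.19 to 0.60), from 401 ± 120 to 462 ± 51.6 CPM, and 0.03 without young WT 6. These intervals include changes in either direction, so the levels are not shown to be equal.

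Summed over the 5 paralogs, which does not depend on how reads were placed among them, the *Serpina1* level was 5000, 5577, 6072, 6586 and 3439 CPM in young WT and 4828, 5207, 5071, 5076 and 4974 CPM in old WT. The young libraries ranged on both sides of the narrow old range. The ratio of the means was −0.08 on the log2 scale, against a pooled SD between libraries of 0.26. Within the sum, *Serpina1b* made up 42.2% to 53.4% and *Serpina1d* 23.9% to 29.9% in every library, whereas *Serpina1e* made up 0.0606% to 12.7%. *Serpina1e* reached 9.32% in young WT 3 and 12.7% in young WT 4, and was below 0.15% in 4 of the 5 old WT libraries. These are shares of counted reads. If reads with several matches were left out, the sum and the shares depend on how many were lost from each paralog.

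**Figure D3:**
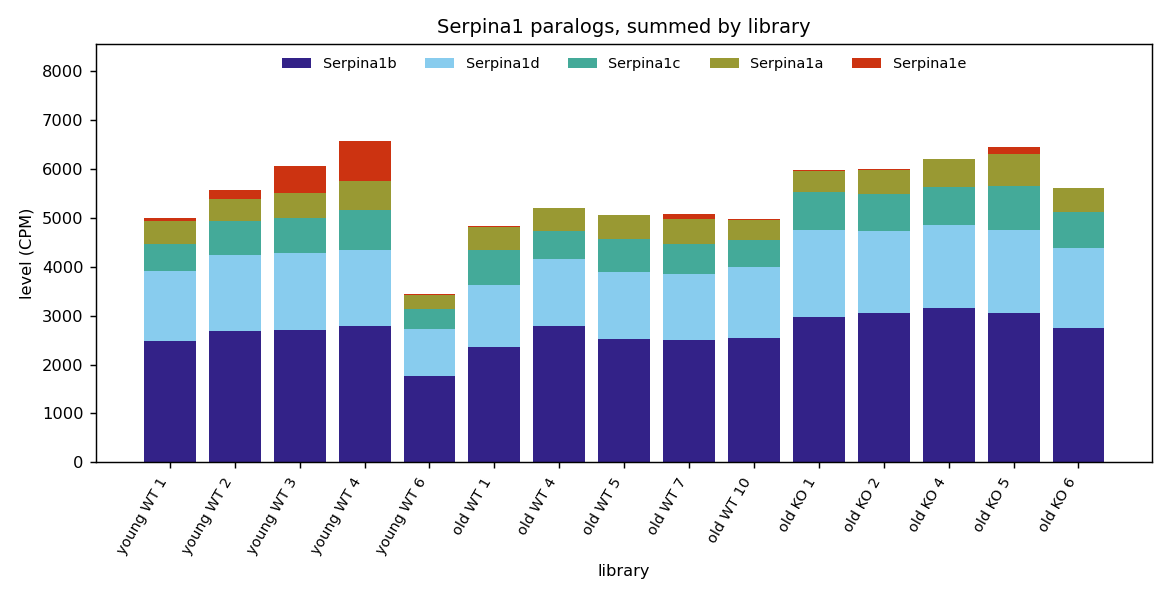
Summed level of the 5 *Serpina1* paralogs in each of the 15 libraries, in CPM from 0, with 1 colour per paralog. The sum is lowest in young WT 6 (3439 CPM) and highest in young WT 4 (6586 CPM), where *Serpina1e* adds 836 CPM, and all old KO bars (5620 to 6457 CPM) are above all old WT bars (4828 to 5207 CPM).

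The second comparison asked how loss of *S6K1* altered the genes at 600 days. None of the 10 passed the edgeR threshold, against 0.533% of tested genes (76 of 14258), and none passed with DESeq2 or limma voom. At an unadjusted p below 0.05 there were 3, *Serpina1b*, *Serpina1c* and *Serpina1d*, against 11.6% of all tested genes. Of the 10 log2 fold changes, 9 were above 0, with a median of 0.29 against 0.0008 over all tested genes. All 8 genes on a list of hepatocyte genes were also above 0, with a median of 0.26, and none passed with edgeR, DESeq2 or limma voom or had an unadjusted p below 0.05. The part of hepatocyte content in the serpin values was not tested. *Serpina1c* and *Serpina1d* had groups without overlap, which held for 3.2% of tested genes.

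*Serpina1d* was at 1273, 1386, 1376, 1349 and 1460 CPM in old WT 1, 4, 5, 7 and 10. In old KO 1, 2, 4, 5 and 6 it was at 1790, 1662, 1703, 1707 and 1630 CPM. Every old KO library was above every old WT library, yet the log2 fold change of 0.31 (SE 0.12) had an edgeR adjusted p of 0.281. *Serpina1c* was at 704, 565, 683, 617 and 563 CPM in old WT and at 768, 774, 790, 900 and 743 CPM in old KO, also without overlap (log2 fold change 0.34, SE 0.15, edgeR adjusted p = 0.360). *Serpina1b* was at 2966, 3064, 3149, 3053 and 2758 CPM in old KO, where only old KO 6 was within the old WT range (log2 fold change 0.24, SE 0.11, edgeR adjusted p = 0.422). *Serpina1a* had a value of 0.13, with a 95% interval of −0.20 to 0.46.

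The *Serpina1* sum was 5981, 6007, 6210, 6457 and 5620 CPM in old KO, so the lowest old KO library was above the highest old WT library. The ratio of the means was 0.27 on the log2 scale, against a pooled SD between libraries of 0.06. This sum was looked at because the paralogs share reads, and as a sum over chosen genes it was given no p. *Serpina1d* made up 26.4% to 29.9% of the sum in old KO and 26.4% to 29.3% in old WT. *Serpina1b* made up 47.3% to 51.0% in old KO and 48.9% to 53.4% in old WT.

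*Serpina3k* was at 3026, 3579, 2428, 4972 and 6162 CPM in old KO, with old KO 1, 2 and 4 inside the old WT range. Old KO 5 and 6 were above it, and also above young WT 6. The log2 fold change was 0.62 (SE 0.30, edgeR adjusted p = 0.451). *Serpina6* was at 341, 294, 475, 345 and 156 CPM in old KO, with old KO 6 the lowest of all 10 old libraries, and the log2 fold change was −0.37 (SE 0.28, edgeR adjusted p = 0.664). Thus old KO 6 and old WT 7 combined the highest *Serpina3k* with the lowest *Serpina6* of their groups.

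*Serpina1e* was at 28.0, 16.5, 10.96, 148 and 13.3 CPM in old KO. Each old group had 1 library far above the rest, old KO 5 and old WT 7. The log2 fold change of 0.96 (SE 1.11) turned to −0.38 without old KO 5 and became 3.19 without old WT 7, so no direction can be given. *Serpina4-ps1* had 1, 1, 0, 20 and 16 reads in old KO, and the 95% interval of its log2 fold change ran from −0.92 to 3.03. *Serpina3m* and *Serpina3n* had log2 fold changes of 0.26 and 0.13, with 95% intervals of −0.13 to 0.66 and −0.25 to 0.51.

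**Figure D4:**
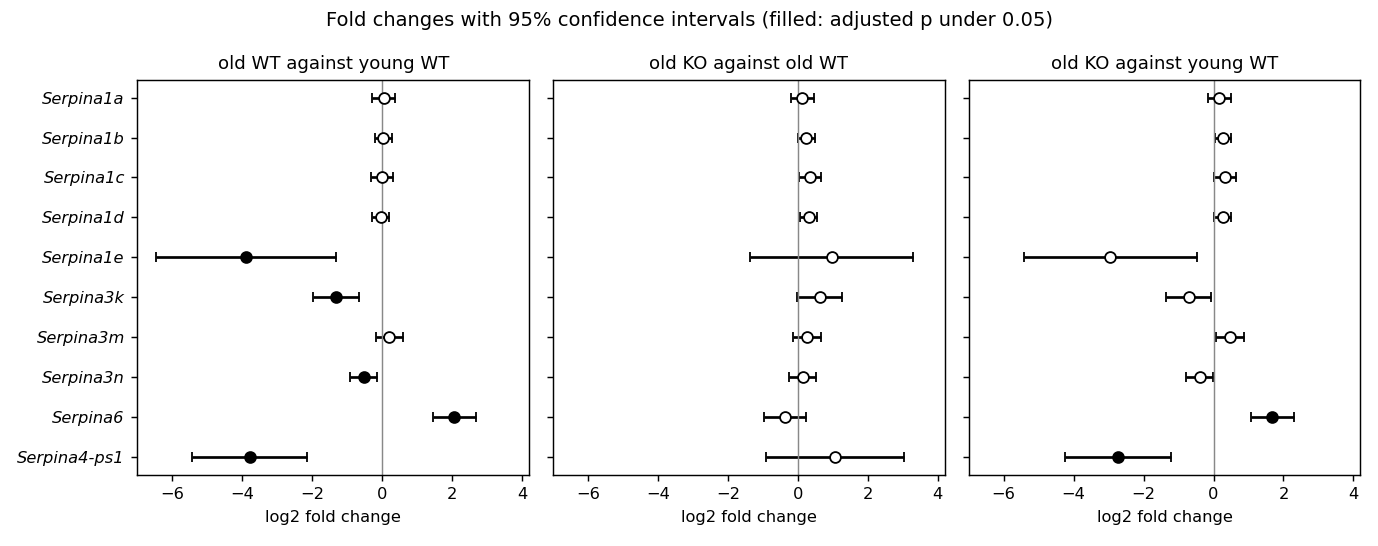
Log2 fold changes of the 10 genes in 3 contrasts, with 95% confidence intervals from the edgeR fit of 15 libraries. Filled points passed an adjusted p of 0.05: 5 genes for old WT against young WT, none for old KO against old WT and 2 for old KO against young WT. The widest intervals belong to *Serpina1e* and *Serpina4-ps1*.

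The third comparison set old KO beside young WT, and shares its libraries with the other 2. *Serpina6* rose (log2 fold change 1.68, SE 0.29, edgeR adjusted p = 0.00105) and *Serpina4-ps1* fell (−2.73, SE 0.72, edgeR adjusted p = 0.0129). These are 2 of 10 genes, against 23.3% of all tested genes, with 12.0% rising and 11.3% falling. Here too *Serpina4-ps1* entered the test only through the young libraries. *Serpina1e* (−2.95, edgeR adjusted p = 0.0768) and *Serpina3k* (−0.71, edgeR adjusted p = 0.101) missed the threshold. *Serpina6*, *Serpina1d* and *Serpina3m* had groups without overlap, all higher in old KO, against 13.9% of tested genes. Without young WT 6 the number called rose from 2 to 5, with *Serpina1e*, *Serpina3m* and *Serpina3n* added. DESeq2 on all libraries called 5, with *Serpina1b*, *Serpina1e* and *Serpina3m* added. Over all tested genes, 3829 of 14412 passed without young WT 6 and 3778 of 14258 with DESeq2, against 3319 of 14258 in the main fit. The values for *Serpina3k* were thus 6590 ± 1413 CPM in young WT, 2627 ± 1190 CPM in old WT and 4034 ± 1517 CPM in old KO, and the difference between old KO and each WT group was not past the threshold.

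The next values describe which of the genes varied together across the 15 libraries. The correlations are of log2 CPM, are given without a test, and share the group differences and the depth of the libraries, so the correlation of deviations from the group means is given second. Young WT 6, the lowest young library for 9 of the 10 genes, still enters these deviations, and its part was not tested. Rank correlations over the libraries were 0.86 for *Serpina1b* and *Serpina1d* and 0.78 for *Serpina1b* and *Serpina3m*. For *Serpina1e* they were 0.90 with *Serpina3k* and 0.80 with *Serpina3n*. *Serpina1b* and *Serpina1d*, which are neighbours and had 507 of their 50-base windows in common, gave r = 0.95 and 0.94. *Serpina1b* and *Serpina3m* gave 0.90 and 0.89. *Serpina1e* gave 0.82 and 0.63 with *Serpina3k* and 0.84 and 0.75 with *Serpina3n*. With its 4 paralogs it gave 0.20 to 0.41 over the libraries, but 0.58 (*Serpina1b*) to 0.75 (*Serpina1a*) within groups. *Serpina6* ran against *Serpina3k* (−0.86 and −0.70) and against *Serpina1e* (−0.71 and −0.34). *Serpina3k* and *Serpina4-ps1* gave 0.89 and 0.87, although the latter rests on few reads.

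Among all tested genes with a mean of at least 1 CPM, 4 of the 10 genes had another of them as 1 of the 2 genes most like it over the 15 libraries. For *Serpina1b* they were *Serpina1d* and *Fah* (r = 0.95 and 0.92), for *Serpina1d* they were *Serpina1b* and *Sult1a1* (0.95 and 0.89), and for *Serpina3m* they were *Serpina1b* and *Tpcn1* (0.90 and 0.90). *Serpina1a* was most like *Scap* (0.85) and *Serpina1c* (0.84). *Serpina1c* itself was most like *Cyp4f14* (0.91) and *Baat* (0.88). The nearest genes to *Serpina1e* were *Hgd* (0.95) and C630043F03Rik (0.92). *Osbpl1a* was among the 2 nearest to both *Serpina3k* (0.95) and *Serpina4-ps1* (0.91), the others being *Ufd1l* (0.94) and *Dmxl2* (0.91). For *Serpina3n* they were *Bhmt2* (0.88) and Gm15622 (0.86), and for *Serpina6* they were *Lgals1* (0.97) and *Saa4* (0.96).

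Of 16 other clade A serpins, 8 had enough reads to be tested, with a median log2 fold change of 0.21 with age. With age 2 of them rose and 0 fell, against 9.92% and 8.91% of all tested genes. *Serpina10*, a cofactor-dependent inhibitor of coagulation factor Xa that flanks *Serpina6*, rose from 106 to 169 CPM without overlap (log2 fold change 0.67, SE 0.13, edgeR adjusted p = 0.00343). *Serpina7*, which encodes thyroxine-binding globulin on the X chromosome, rose from 20.4 to 55.8 CPM (1.46, SE 0.38, edgeR adjusted p = 0.0154). Its young WT libraries ranged from 9.45 to 44.32 CPM, and the highest, young WT 6, was just above old WT 1 (44.27 CPM). Thus the 2 hormone carriers of the family, *Serpina6* and *Serpina7*, both had a higher mean in old WT, *Serpina7* with overlapping groups. *Serpina11* (0.08), *Serpina12* (0.33), *Serpina3g* (0.42), *Serpina3f* (−0.20), *Serpina3c* (−0.58) and *Serpina3h* (−0.94) did not pass. Pseudogenes were not on this list, and the tested one, *Serpina3e-ps* (−1.22, SE 0.53), did not pass either. In old KO against old WT none of the 8 passed with edgeR, DESeq2 or limma voom, and 1 had an unadjusted p below 0.05. Of all tested genes, 0.533% passed with edgeR and 11.6% had an unadjusted p below 0.05, which the 1 of 8 was near.

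**Figure D5:**
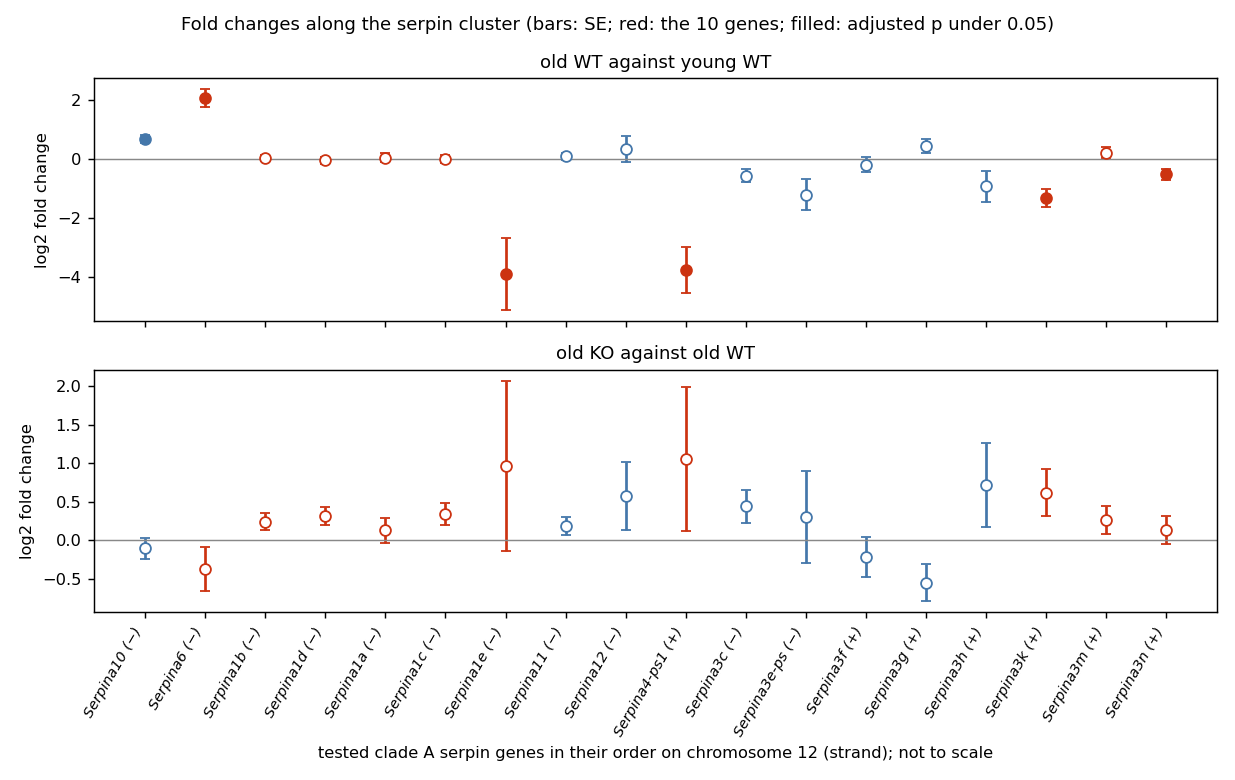
Log2 fold changes of the tested clade A serpins in their order on chromosome 12, with SE bars, for old WT against young WT and old KO against old WT. Red marks the 10 genes, blue the others, and filled points passed an adjusted p of 0.05. *Serpina1e* (−3.91) sits beside 4 paralogs between −0.05 and 0.04 in the age contrast.

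Other genes around serpin biology were read from lists written from general knowledge, with earlier results known. Of all tested genes, 9.92% rose with age and 8.91% fell. Of 13 tested serpins of other clades, 4 rose with age and none fell, led by *Serpinb1a* (log2 fold change 3.19) and *Serpinb8* (1.02), which are intracellular protease inhibitors. Among 7 tested serine proteases that serpins inhibit, 3 rose and none fell, led by *Gzmb*, which encodes granzyme B (1.52, at under 1.2 CPM). Of 24 transcription factors and receptors known to act on liver serpin genes, 6 rose and none fell, with the largest changes for the prolactin receptor gene *Prlr* (0.88) and the growth hormone receptor gene *Ghr* (0.81). The median of these 24 was 0.03. In old KO against old WT none of these 3 lists had a member past the threshold with edgeR. At an unadjusted p below 0.05 there were 3 of 13 serpins, 3 of 7 proteases and 3 of 24 factors and receptors. The share of all tested genes was 11.6%, and only the 3 of 24 was near it. For this contrast DESeq2 called 2 serpins of other clades, and limma voom called none.

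Of 22 acute phase genes outside the serpins, 9 rose with age and none fell, with a median of 0.39. Among all tested genes, 9.92% rose and 8.91% fell, which also applies to the next 2 lists. *Saa2* (2.45) and *Orm2* (1.96) led, and *Saa2* dropped to 1.25 (edgeR adjusted p = 0.0623) without old WT 10. *Serpina3n*, also an acute phase gene, had the opposite sign. Of 12 glucocorticoid-responsive genes, 2 rose: *Lcn2* (1.71, and 0.85 without old WT 10) and *Hsd11b1*, which regenerates active glucocorticoid in liver (0.46). *Lcn2* is also on the acute phase list, so its call is counted in both lists. The call of *Lcn2* was lost in 7 of the 10 fits that left out a library (adjusted p up to 0.184) and with limma voom (0.181), and with the replicate block its value was −0.06. Their median was −0.30, beside the rise of *Serpina6*. Of 17 genes for folding and disposal of secreted glycoproteins in the endoplasmic reticulum, 2 rose, led by *Edem2* (0.42), and none fell, with a median of −0.03. The 2 of 17 is near the 9.92% of all tested genes that rose. None of these 3 lists had a member past the threshold in old KO against old WT with edgeR, DESeq2 or limma voom, and 5 acute phase, 1 glucocorticoid-responsive and 1 endoplasmic reticulum gene had an unadjusted p below 0.05. The last 2 lists were thus below the 11.6% of all tested genes.

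Of 8 hepatocyte genes, *Tf* rose with age (0.62) while *Cps1* (−1.27) and *Apoa1* (−0.69) fell. For the counts in this paragraph, 9.92% of all tested genes rose with age and 8.91% fell. In old KO against old WT, 0.533% passed with edgeR. The hepatocyte sum was lowest in young WT 6, at 86243 CPM, and reached 140400 CPM in old WT 7 and 151140 CPM in old KO 5, the libraries with the highest *Serpina1e* of their groups. Of 7 lymphocyte markers, 4 rose with age with edgeR (4 with DESeq2 and none with limma voom), with summed levels between 2.99 and 5.94 CPM in young animals and between 7.78 and 15.8 CPM in old WT animals. Of 7 macrophage markers, 4 fell in old KO with edgeR (6 with DESeq2 and 1 with limma voom), where the list summed to 111 to 157 CPM against 181 to 487 CPM in old WT. Of 7 stellate and endothelial markers, 1 rose and 2 fell with age. None of 3 tested neutrophil and 4 bile duct markers passed in any of the 3 contrasts with edgeR, DESeq2 or limma voom, or had an unadjusted p below 0.05. No marker of these lists was at 0 in all libraries. The part of cell composition in the serpin levels was not tested.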

How the data were processed

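Liver RNA libraries were made from polyadenylated RNA with a strand-marking kit and sequenced as single 50-base reads. Reads were demultiplexed with CASAVA and aligned to mm9 with TopHat2 2.0.11, per the submitters' processing notes and the study's methods. The authors deposited raw counts per Ensembl gene from HTSeq for 15 libraries, and their own tests used DESeq2 1.18.1. The annotation, the strand setting and the handling of reads with several matches were not given in the sources used here.

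Symbols and positions came from GENCODE M1 on NCBIM37, which matched 37205 of 37991 identifiers. Genes passing edgeR's filterByExpr (14258) were scaled by TMM and tested with edgeR 4.0.16 (quasi-likelihood test, R 4.3.3) in 1 fit of 3 groups and 15 libraries, with Benjamini-Hochberg adjustment over all tested genes and a threshold of 0.05. CPM used the TMM-scaled library sizes, and log2 CPM for correlations had a prior count of 2. All p-values are two-sided. The scripts were tested on simulated data. Alternatives were RLE and upper quartile scaling, scaling without the 10 genes, DESeq2 1.42.0, limma voom (limma 3.58.1), no filter on low counts, the 10 libraries of a contrast, counts thinned to equal depth, a replicate block and leaving out each library. No pair of libraries agreed within sampling noise. Sequences were handled with Biopython 1.88. Windows of 50 bases were searched exactly on both strands of 211 genome sequences.

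The 10 genes and all gene lists were chosen with earlier results of these data known. Named were the 10 genes, the 2 genes most correlated with each, the tested clade A serpins, Rps6kb1, and of each list at most the 4 with the largest change each way among those past the threshold. Replicates are separate animals numbered in the labels, and the labels give no batch.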

Additional observations from a re-analysis of the deposited data

Results flagged for a closer look

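Within groups of 5 libraries, 6 of 33 sets of values had 1 library whose gap to its nearest neighbour took up most of the group's range (Dixon's criterion at the 95% level, which chance meets in about 1 in 20 groups). Young WT 6 was the lowest of its group for *Serpina1d* (962 CPM), *Serpina3k* (4115 CPM) and *Serpina3m* (190 CPM). Old WT 4 was the highest of its group for *Serpina3m* (550 CPM). *Serpina1e* had a single high library in each old group, at 92.4 CPM in old WT 7 and 148 CPM in old KO 5. These sets are not independent, since the genes share libraries and reads.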

How the results depend on the processing

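The number of genes changed with age was 2685, and 899 with the replicate block. For old KO against old WT it was 76, and 309 with DESeq2, 23 with limma voom and 6 with the replicate block. The labels do not say whether the replicate numbers pair the animals. Deviations of same-numbered libraries correlated at −0.15 to 0.08. Libraries of different number were not compared, so these values do not decide it. Of the 10 serpin genes, 2 were called for old KO against young WT, and 5 with DESeq2. Of 14258 tested genes, 3319 were called there, and 3778 with DESeq2. Leaving out 1 library at a time gave 1748 to 3284 genes with age, 9 to 83 for old KO against old WT and 2460 to 3829 for old KO against young WT. Of the serpin genes it gave 3 to 5 with age and 2 to 5 for old KO against young WT. With age, 3 serpin genes were left without old WT 1, 4 or 5 or without young WT 3 or 4.

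Signs turned with the replicate block for *Serpina1a* (−0.054) and *Lcn2* (−0.0581) and with limma voom for *Serpina1c* (0.024) and *Serpina12* (−0.0062), all with age. Leaving out 1 library gave log2 fold changes with age of −0.0866 to 0.13 for *Serpina1a*, −0.0655 to 0.0701 for *Serpina1b*, −0.132 to 0.0786 for *Serpina1c*, −0.15 to 0.0037 for *Serpina1d* and −0.351 to 0.0183 for *Serpina3f*, and of −0.38 to 3.19 for *Serpina1e* in old KO against old WT. The cause was not tested. With age, *Serpina6* kept its direction and its call in all 19 alternatives (adjusted p up to 0.0219), as did *Serpina3k* (up to 0.0457). *Serpina4-ps1* lost its call only with the replicate block (adjusted p = 0.0672), and *Serpina10* (0.0785) and *Serpina7* (0.151) also lost theirs there. None of the serpin genes was called for old KO against old WT in any alternative run, which were 18 for *Serpina4-ps1*, which was not tested in the 10 libraries of this contrast, and 19 for the others. Depth limits *Serpina4-ps1*, which had at most 20 reads in an old library.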
